A study of Mus musculus with 4 samples.

Results

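The genes described here belong to the bone morphogenetic protein (BMP) and transforming growth factor beta (TGF-beta) signalling pathway. They were taken by gene symbol from a list of 41 ligands, receptors, Smads, Id targets and antagonists, and all 41 had a row among the 17721 genes of the deposited table. RNA had been sequenced from the epidermis of C57BL/6 back skin at postnatal day 63, with 2 libraries from LDB2-/- mice and 2 from wild type mice. Per the labels, the skin had been treated with dispase, an enzyme that loosens the epidermis from the dermis. The product of Ldb2 is a LIM domain-binding cofactor that bridges transcription factors. The sex of the mice, how the allele was made and whether a library came from a single animal are not given in the sources used here, so p-values measure the spread between these libraries, which may be technical.

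BMP and TGF-beta ligands are secreted dimers that bring together type I and type II receptor kinases. BMP receptors phosphorylate Smad1, Smad5 and Smad9, TGF-beta and activin receptors phosphorylate Smad2 and Smad3, and either set enters the nucleus with Smad4. Smad6, Smad7 and Bambi are induced by the pathway and dampen it, while secreted antagonists such as Nog, Grem1, Fst and Sostdc1 bind ligands outside the cell. In the hair follicle, BMP signals hold resting stem cells quiescent, and in the growing follicle they act in the differentiation of the matrix, from which the hair shaft and inner root sheath arise.

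Libraries held 54095522 and 68436842 counts in LDB2-/- and 67307536 and 57517162 in wild type. Ldb2 itself had 0 and 0 counts in LDB2-/- and 0 and 8 counts in wild type, too few to check the genotype labels. Levels below are counts per 1e+06 scaled by TMM, a factor that corrects for library composition (scaled CPM). Each fold change is LDB2-/- divided by wild type, from edgeR's quasi-likelihood test, with p-values adjusted by the Benjamini-Hochberg method over the 12400 genes that reached 1 FPKM in at least 2 libraries, and genes with an adjusted p under 0.05 were called. Over the tested genes the median log2 change was -0.01 with TMM and -0.33 when libraries were scaled by their totals alone, so small changes are read against that shift.

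Markers of several cell types also differed between genotypes, where 28.4% of all tested genes were called higher and 28.8% lower. Epidermal keratins were abundant in every library, with Krt14 at 4303 and 4414 scaled CPM in LDB2-/- and 8665 and 7624 in wild type. All 7 basal keratinocyte markers were called lower, and their summed level was 10972 and 11148 scaled CPM in LDB2-/- and 26333 and 23887 in wild type. Of 7 suprabasal keratinocyte markers 6 were called lower and Ivl higher, with sums of 4624 and 4289 in LDB2-/- and 27034 and 22324 in wild type. All 12 hair matrix and inner root sheath markers were called higher, with sums of 113371 and 123482 in LDB2-/- and 185 and 673 in wild type. Of 12 dermal papilla markers 4 were tested and all 4 were called higher. The sum over the 12, at 180 and 168 in LDB2-/- and 20.7 and 29.6 in wild type, was mostly Wnt5a, and Sox2 was at 0 in both LDB2-/- libraries. Of 10 fibroblast markers 6 were called higher and Thy1 lower, with sums of 233 and 291 in LDB2-/- and 196 and 173 in wild type. Thy1 held 113 and 124 of the wild type sums and 36.9 and 38.8 of the LDB2-/- sums. The 10 endothelial markers summed to 56.6 and 63.7 in LDB2-/- and 6.11 and 9.86 in wild type, with 4 tested, all 4 called higher, and Kdr at 0 in both LDB2-/- libraries. All 7 melanocyte markers were called higher, with sums of 1233 and 1428 in LDB2-/- and 39.1 and 58.6 in wild type. Of 7 tested leukocyte markers 6 were called lower and Cd68 higher, with sums of 106 and 113 in LDB2-/- and 213 and 244 in wild type. Skeletal muscle markers summed to 58.3 and 52.2 in LDB2-/- and 4.79 and 3.78 in wild type, with all 5 tested of 10 called higher and Ttn at 0 in both LDB2-/- libraries. Pericyte and smooth muscle markers summed to 95.0 and 110.5 in LDB2-/- and 3.79 and 3.91 in wild type, with both tested of 6 called higher and Rgs5 at 0 in both LDB2-/- libraries. Adipocyte markers summed to 701 and 742 in LDB2-/- and 3.32 and 4.41 in wild type, with 1 called higher and 1 lower. The gene called higher, Fabp4, alone held 700 and 741 of the LDB2-/- sums. Cidec was the one called lower, and Plin1 was at 0 in both LDB2-/- libraries. Some markers reached 1 FPKM in LDB2-/- libraries only, so their direction was partly fixed by the FPKM filter. Among them were all 4 tested endothelial markers, Pecam1, Cldn5, Plvap and Vwf. The others were the muscle genes Acta1, Tnnt3, Ckm, Atp2a1 and Tagln, and Crabp1, Fap, Tyr and Sox10. Cidec reached 1 FPKM in wild type libraries only. In such bulk libraries a change in the number of cells of a type and a change in RNA per cell cannot be told apart. The part of these shifts in the results below was not tested.

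Of the 41 pathway genes 37 were tested, and 13 were called higher and 9 lower in LDB2-/-. That is 59.5% of those tested, close to the 57.2% of all tested genes, so the share called is not a result about the pathway. Background shares were 28.4% higher and 28.8% lower, and the median log2 fold change was -0.15 for the pathway genes and -0.01 for all tested genes. Which roles moved, and in which direction, is what follows. Inhba, Bmpr1b, Smad9 and Nog were too low to test. Bmp6, Bmp8a and Bambi entered the test through their LDB2-/- values alone, and Tgfb2 and Grem1 through their wild type values alone, so their direction was partly fixed by the filter. Among the 32 genes that reached 1 FPKM in a library of each genotype, 10 were called higher and 8 lower, where 54.3% of all such genes were called in either direction. Without the filter, 13 of the 41 were called higher and 9 lower, against 19.7% and 21.1% of all genes. With libraries scaled by their totals alone 11 were higher and 17 lower (18.1% and 41.1% of all tested genes), and limma on log2(FPKM + 1) also gave 11 and 17 (19.3% and 43.1%). At a mean FPKM of 5 or more, 10 were higher and 8 lower (29.4% and 30.2%), and DESeq2 gave 13 and 10 (31.0% and 30.9%). The genotypes did not overlap in scaled CPM for 31 of the 37, against 82.5% of all tested genes. In the authors' deposited table, 12 of the 41 were higher and 12 lower at an adjusted p under 0.05, where 47.6% of all genes with an adjusted p passed. Bmpr1b and Nog, too low to test here, and Smad1, not called here, were lower in the authors' comparison. Bmp8a, called higher here, did not pass there.

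**Figure D1:**
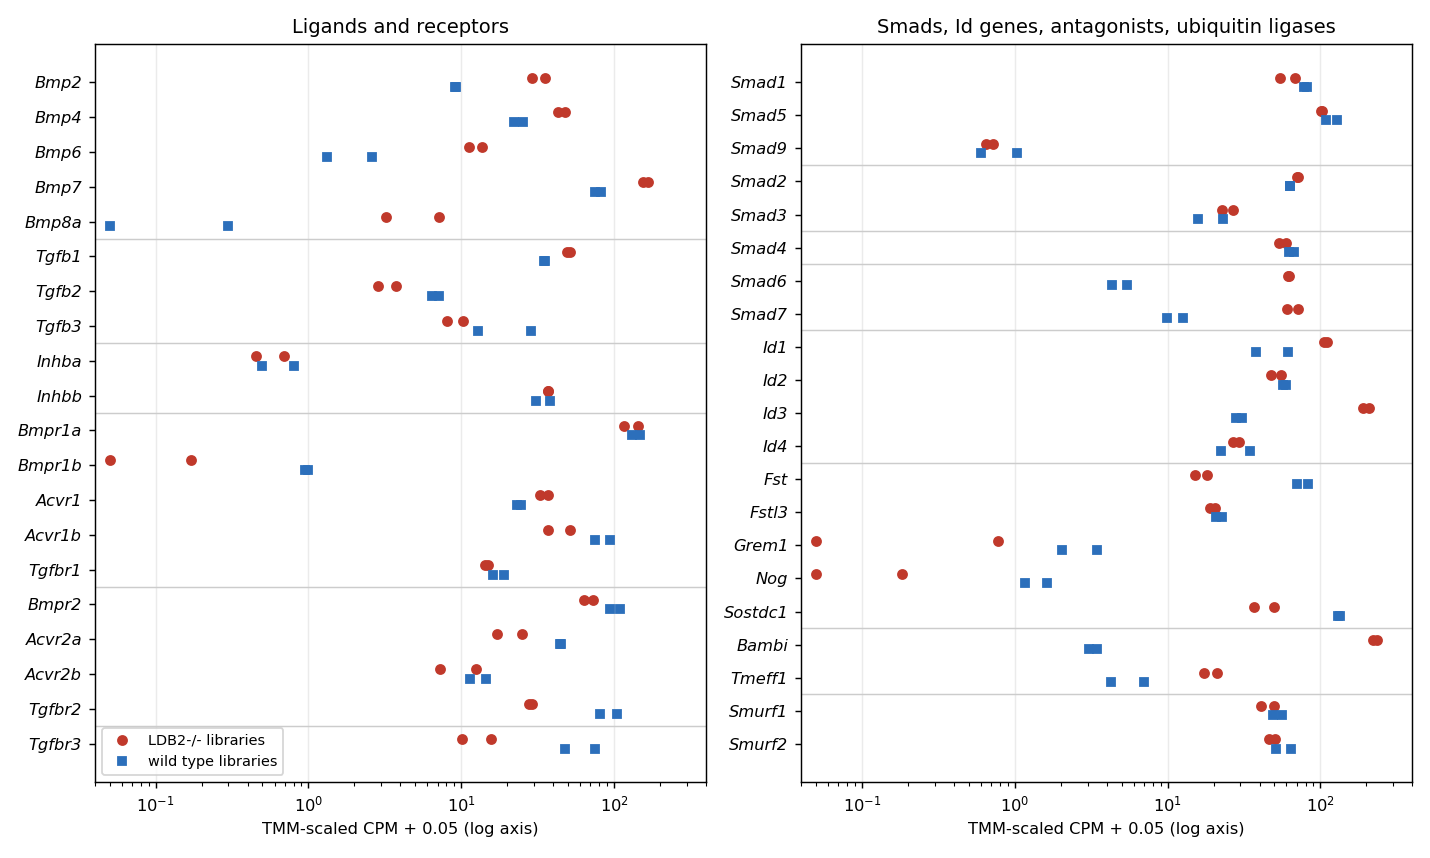
Scaled CPM of each of the 41 pathway genes in every library, with 0.05 added so that libraries at 0 can be drawn on the log axis; red circles are LDB2-/- libraries, blue squares wild type libraries, and lines separate roles. The 5 BMP ligands, Smad6, Smad7, Id3 and Bambi lie to the right in LDB2-/-, and Tgfbr2, Tgfbr3, Fst and Sostdc1 lie to the left.

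All 5 BMP ligands rose in LDB2-/-, where 28.4% of all tested genes were called higher. Bmp6 and Bmp8a entered the test through their LDB2-/- values alone, so their direction was partly fixed by the filter. Bmp2, Bmp4 and Bmp7 reached 1 FPKM in both genotypes. Bmp7 (gene ID 12162, chromosome 2, 172868012 to 172940321, mm10), the ligand with the most RNA per length in each library, was at 154 and 166 scaled CPM in LDB2-/- and 81.5 and 74.7 in wild type. It rose by 1.03 log2 units (SE 0.11, adjusted p = 0.000983). Bmp4 (chromosome 14, 46383525 to 46390669), a ligand of dermal papilla and matrix, was at 43.0 and 47.4 in LDB2-/- and 22.0 and 25.3 in wild type, a rise of 0.94 log2 units (SE 0.14, adjusted p = 0.00267). For both genes the LDB2-/- libraries lay above the wild type libraries, and libraries of a genotype lay close together. Genotypes did not overlap for 82.5% of all tested genes. Bmp2 (chromosome 2, 133552159 to 133562896), known from mouse hair cycle studies as a ligand of the surrounding dermis and the follicle, was at 35.2 and 29.0 in LDB2-/- and 9.08 and 9.25 in wild type. It rose by 1.81 (SE 0.17, adjusted p = 0.000614).

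Bmp6, a ligand linked to quiescence of bulge stem cells, and Bmp8a were the least abundant BMP ligands in wild type. Bmp6 had 552 and 814 counts in LDB2-/- and 95 and 164 in wild type, and rose by 2.70 log2 units (SE 0.38, adjusted p = 0.00229). Bmp8a had 350 and 188 counts in LDB2-/- and 0 and 16 in wild type, with a fitted log2 change of 5.40 (SE 1.09, adjusted p = 0.00831). The size of the Bmp8a change rested on wild type replicate 2. It was 4.35 with wild type replicate 1 left out, and 11.28 with wild type replicate 2 left out, where the remaining wild type library was at 0 and the fitted value is no bound. Against wild type replicate 1 alone, taken at a floor of 3 counts, the LDB2-/- mean of Bmp8a was at least 126-fold higher. That bound does not hold for wild type replicate 2, at 0.248 scaled CPM, and the fit over all 4 libraries gave 42.3-fold. On the log2(FPKM + 1) scale, which understates changes of low genes, limma gave 1.41 for Bmp8a and 1.46 for Bmp6, and Bmp4 was at 0.62 with the library total alone. Bmp8a has a close copy, Bmp8b, so its reads may be shared. Within each library, per length, Bmp7 made up 52.8% and 55.0% of the summed FPKM of the 5 ligands in LDB2-/- and 61.9% and 56.3% in wild type. The share of Bmp2 was 12.4% and 9.88% in LDB2-/- and 7.09% and 7.17% in wild type. These shares do not depend on scaling between libraries, and in them Bmp7 and Bmp4 remained the leading ligands of both genotypes.

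Of the 3 TGF-beta ligands 1 was called higher and 2 lower, where 57.2% of all tested genes were called. Each of these 3 ligand calls was lost when 1 library was left out. Tgfb1 was at 49.1 and 51.1 scaled CPM in LDB2-/- and 35.0 and 34.8 in wild type, a rise of 0.52 log2 units (SE 0.11, adjusted p = 0.00976). It was no longer called without LDB2-/- replicate 2 (0.49, adjusted p = 0.0561) or with the library total alone (0.20, adjusted p = 0.165). Tgfb2, a ligand that activates hair germ stem cells at the start of growth in mice, was at 3.67 and 2.81 in LDB2-/- and 7.13 and 6.42 in wild type. It fell by 1.07 (SE 0.26, adjusted p = 0.016), with the call lost without wild type replicate 1 (adjusted p = 0.0656), and limma on log2(FPKM + 1) gave -0.67. Tgfb3 was at 7.96 and 10.2 in LDB2-/- and 12.7 and 28.7 in wild type, whose libraries lay far apart. It fell by 1.19 (SE 0.40, adjusted p = 0.0467), but only by 0.48 without wild type replicate 2 and by 1.01 without LDB2-/- replicate 1, and both lost the call. The Tgfb3 call was also lost in edgeR without the filter on low values (adjusted p = 0.06) and with replicates blocked in crossed pairs (adjusted p = 0.119). Within libraries, Tgfb1 took a larger share of the summed FPKM of the 3 ligands in each LDB2-/- library (88.1% and 86.8%) than in each wild type library (75.7% and 62.1%). The activin subunits gave no call. Inhbb was at 36.7 and 36.9 in LDB2-/- and 38.2 and 30.9 in wild type (log2 fold change 0.09, SE 0.15, adjusted p = 0.621, negative with the library total alone), and Inhba had 32 and 24 counts in LDB2-/- and 33 and 49 in wild type.

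Receptor genes mostly fell. Of 9 tested receptors and co-receptors 5 were called lower and 1, Acvr1, higher. Those called were 66.7% of the 9, against 57.2% of all tested genes, and 28.8% of all tested genes were called lower. Tgfbr3, the co-receptor betaglycan, which presents TGF-beta2 to its receptors, was at 15.5 and 10.0 scaled CPM in LDB2-/- and 47.8 and 74.7 in wild type. It fell by 2.26 log2 units (SE 0.30, adjusted p = 0.00191). Tgfbr2 (chromosome 9, 116087695 to 116175363), the type II receptor of TGF-beta, was at 27.5 and 29.2 in LDB2-/- and 80.9 and 104 in wild type, a fall of 1.70 (SE 0.15, adjusted p = 0.000525). Its type I partner Tgfbr1 was at 14.8 and 14.3 in LDB2-/- and 16.1 and 18.9 in wild type, and was not called (-0.26, SE 0.17, adjusted p = 0.238). Whether Tgfbr2 changed more than Tgfbr1 was not tested. Tgfbr2 took 32.4% and 39.3% of the summed FPKM of the 4 type II receptors in LDB2-/-, below the 49.3% and 53.5% in wild type.

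Acvr2a, an activin type II receptor, was at 25.0 and 17.0 in LDB2-/- and 45.0 and 44.4 in wild type, and fell by 1.09 (SE 0.20, adjusted p = 0.00631). Acvr1b, the activin type I receptor, was at 51.5 and 37.0 in LDB2-/- and 74.6 and 94.0 in wild type, and fell by 0.93 (SE 0.20, adjusted p = 0.0104). Bmpr2, the BMP type II receptor, was at 72.5 and 63.8 in LDB2-/- and 94.0 and 109 in wild type, and fell by 0.57 (SE 0.13, adjusted p = 0.0122), or -0.89 with the library total alone. In these 3 genes both LDB2-/- libraries lay below both wild type libraries, where genotypes did not overlap for 82.5% of all tested genes. Bmpr1a, the BMP type I receptor that hair differentiation needs in mice, overlapped between genotypes, at 144 and 115 in LDB2-/- and 131 and 147 in wild type (-0.10, SE 0.15, adjusted p = 0.574). Acvr1, a further BMP type I receptor, was at 37.0 and 32.7 in LDB2-/- and 22.9 and 24.6 in wild type, and rose by 0.55 (SE 0.14, adjusted p = 0.0176). Its call was lost without LDB2-/- replicate 1 (adjusted p = 0.0633), without wild type replicate 1 (adjusted p = 0.0681) and with the library total alone (0.24, adjusted p = 0.232). Acvr2b was not called (-0.39, SE 0.31, adjusted p = 0.316), though it was without LDB2-/- replicate 1 (-0.83, adjusted p = 0.0374). Bmpr1b had 6 and 0 counts in LDB2-/- and 70 and 58 in wild type and was too low to test. Basal and suprabasal keratinocyte markers, summed above, were lower in the same libraries, and their part in the receptor values was not tested.

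Against 57.2% of all tested genes, none of the 5 tested signalling Smads was called, although both inhibitory Smads rose. In edgeR 1 of them, Smad1, passed 0.05 before adjustment (adjusted p = 0.0627), and DESeq2 called it lower (-0.37, adjusted p = 0.0361). Smad1 was at 68.6 and 54.7 scaled CPM in LDB2-/- and 82.2 and 77.9 in wild type, with a log2 change of -0.38 (SE 0.14), and it passed the threshold when LDB2-/- replicate 1 was left out (-0.54, adjusted p = 0.0287). Smad5 was at 100.4 and 102 in LDB2-/- and 109 and 129 in wild type (-0.23, SE 0.12). Smad4, the shared partner, was at 59.3 and 53.3 in LDB2-/- and 62.7 and 67.1 in wild type (-0.20, SE 0.11). With the library total alone Smad1, Smad5 and Smad4 were called lower, at -0.69, -0.55 and -0.52. The TGF-beta Smads had log2 fold changes of 0.16 for Smad2 (SE 0.10), which was -0.16 with the library total alone, and 0.35 for Smad3 (SE 0.22). Smad9 had 30 and 40 counts in LDB2-/- and 73 and 36 in wild type.

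Smad6 (gene ID 17130, chromosome 9, 63953076 to 64022085), an inhibitory Smad that acts mainly on BMP receptors and Smad1, was at 61.9 and 61.5 scaled CPM in LDB2-/- and 4.26 and 5.35 in wild type. It rose by 3.68 log2 units (SE 0.17, adjusted p = 0.000101), a 12.8-fold rise. Smad7 (gene ID 17131, chromosome 18, 75367365 to 75395935), which blocks both arms of the pathway, was at 70.8 and 60.0 in LDB2-/- and 9.82 and 12.7 in wild type. It rose by 2.54 (SE 0.18, adjusted p = 0.000265). Within each library, the summed FPKM of Smad6 and Smad7 was 0.972 and 1.02 times that of Smad1, Smad5 and Smad9 in LDB2-/- and 0.0837 and 0.103 times in wild type. Both LDB2-/- libraries lay above both wild type libraries in this ratio, which needs no scaling between libraries.

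**Figure D2:**
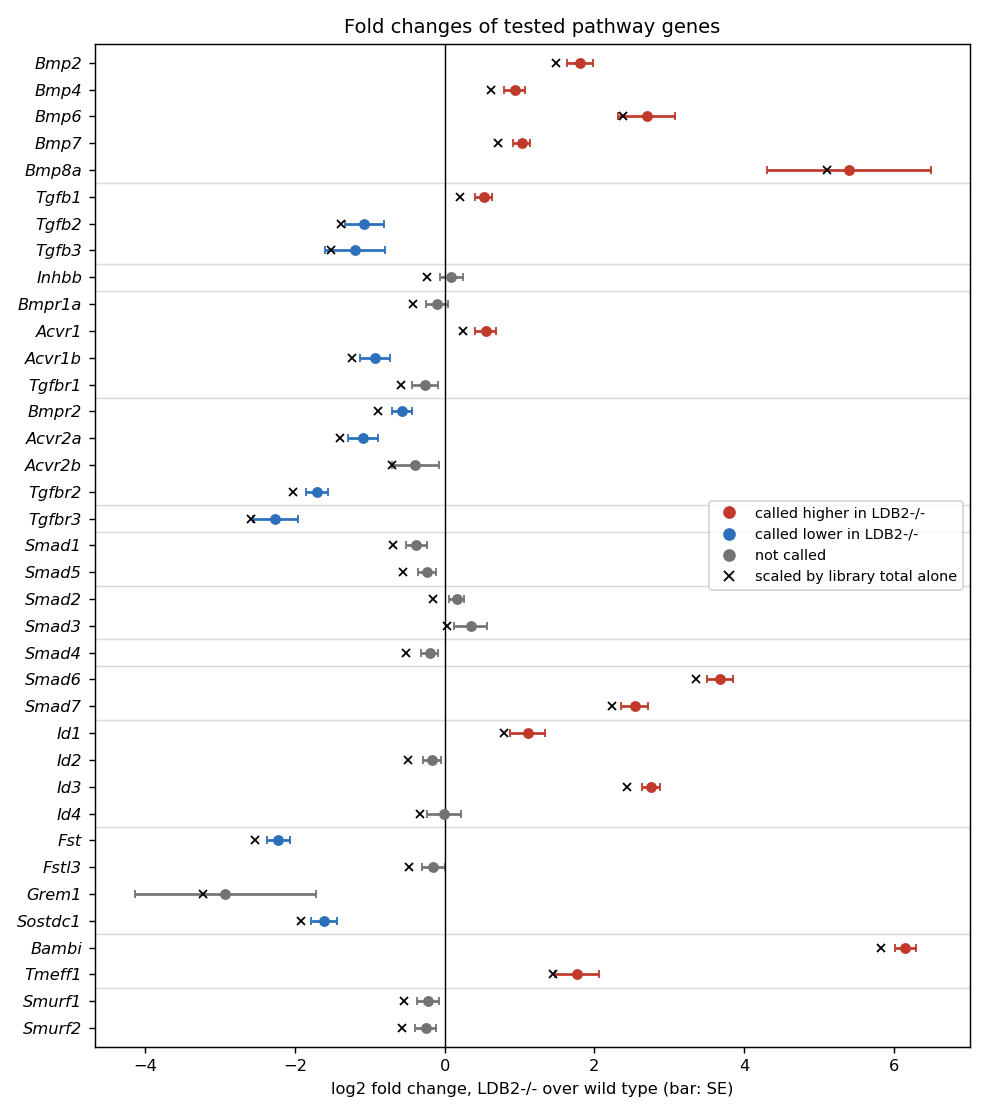
Log2 fold change of LDB2-/- over wild type for the 37 tested pathway genes, with the SE as a bar; red and blue are genes called higher and lower, grey are genes not called, and black crosses give the value with libraries scaled by their total alone. Crosses lie to the left of the circles throughout, and Bambi (6.15), Bmp8a (5.40) and Smad6 (3.68) lie farthest to the right.

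Id genes encode helix-loop-helix proteins that lack a DNA-binding region and hold back differentiation factors, and in many cells their transcription follows BMP Smads. Of the 4 genes Id3 and Id1 rose and Id2 and Id4 were not called, where 57.2% of all tested genes were called. Id3 (gene ID 15903, chromosome 4, 136143822 to 136145392) was at 190 and 207 scaled CPM in LDB2-/- and 30.7 and 27.9 in wild type, and rose by 2.76 log2 units (SE 0.12, adjusted p = 9.68e-05), 6.77-fold. Id1 (chromosome 2, 152736251 to 152737410) was at 110 and 105 in LDB2-/- and 61.7 and 37.9 in wild type, with a rise of 1.11 (SE 0.23, adjusted p = 0.00931). Id2 was at 55.5 and 47.8 in LDB2-/- and 59.4 and 57.0 in wild type (-0.17, SE 0.12, adjusted p = 0.267), and with the library total alone it was called lower (-0.49, adjusted p = 0.0276). Id4 was at 29.5 and 26.9 in LDB2-/- and 34.6 and 22.2 in wild type, with a log2 change of -0.01 (SE 0.23, adjusted p = 0.967), positive without wild type replicate 1 (0.34). Per length, Id3 made up 52.6% and 56.7% of the summed FPKM of the 4 genes in LDB2-/- and 19.4% and 22.8% in wild type, while Id2 made up 11.5% and 9.8% in LDB2-/- and 28.1% and 35.0% in wild type. Id3 thus stood first of the 41 pathway genes by mean FPKM in LDB2-/- and 4th in wild type.

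The sequences upstream of Id3, Id2 and Id4 are shown because Id3 was called higher and its relatives Id2 and Id4 were not. Each is the 250 bases before the gene's start from RefSeq (GRCm38.p6), 5′ to 3′ on the gene's strand, at chr4:136143572-136143821 (plus) for Id3, chr12:25096093-25096342 (minus) for Id2 and chr13:48260866-48261115 (plus) for Id4. Capitals mark GGCGCC, the GC-rich element known from BMP-responsive promoters, and CAGAC, the Smad half-site, searched on both strands, so that CAGAC also reads GTCTG.
Id3: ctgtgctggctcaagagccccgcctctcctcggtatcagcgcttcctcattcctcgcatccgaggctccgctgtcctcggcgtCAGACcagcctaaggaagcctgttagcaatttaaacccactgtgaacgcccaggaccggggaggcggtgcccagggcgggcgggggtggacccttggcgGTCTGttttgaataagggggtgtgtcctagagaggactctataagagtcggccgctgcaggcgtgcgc
Id2: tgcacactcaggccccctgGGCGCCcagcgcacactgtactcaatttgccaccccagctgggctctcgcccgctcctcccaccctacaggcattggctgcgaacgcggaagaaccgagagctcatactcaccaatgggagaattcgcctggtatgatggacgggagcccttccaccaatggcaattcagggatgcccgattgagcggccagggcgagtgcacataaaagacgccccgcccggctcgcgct
Id4: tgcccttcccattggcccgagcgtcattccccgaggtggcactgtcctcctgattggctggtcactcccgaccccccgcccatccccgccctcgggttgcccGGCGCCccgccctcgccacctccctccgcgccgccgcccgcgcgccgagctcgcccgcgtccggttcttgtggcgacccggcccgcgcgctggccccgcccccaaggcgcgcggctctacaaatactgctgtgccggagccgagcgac
Id1, the other Id gene called higher, was not analysed for motifs here, so these windows hold 1 called gene. The Id3 window held CAGAC in 2 places and no GGCGCC, while the Id2 and Id4 windows each held GGCGCC in 1 place and no CAGAC. Of all 32851 such windows, 42.2% held CAGAC and 9.59% held GGCGCC. Of the pathway genes 29 had windows, and GGCGCC was in those of 10 and CAGAC in those of 14, against 10.8% and 45.8% of all 27025 genes with a window. The median GC content was 68.2% over the 34 windows of pathway genes and 52.4% over all windows. The 8-base palindrome GTCTAGAC was in none of the 29 and in 0.167% of all windows. A match is a description of the letters and says nothing of binding. The Id4 window lies inside the annotated non-coding gene A330033J07Rik.

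Of 6 tested antagonists the membrane proteins Bambi and Tmeff1 rose, and the secreted Fst and Sostdc1 fell. Those called were 66.7% of the 6, against 57.2% of all tested genes. Bambi entered the test through its LDB2-/- values alone, so its direction was partly fixed by the filter. Whether membrane and secreted antagonists differed as groups was not tested. Bambi (gene ID 68010), a receptor-like protein without a kinase domain that blocks type I receptors, was at 221 and 236 scaled CPM in LDB2-/- and 3.03 and 3.40 in wild type. Its rise of 6.15 log2 units (SE 0.14, adjusted p = 6.49e-05) was the largest among the 41 listed genes in the fit with all 4 libraries. Bmp8a was at 11.28 without wild type replicate 2. By mean FPKM Bambi stood 3rd of the 41 in LDB2-/- and 36th in wild type. Tmeff1, known in Xenopus as an inhibitor of Nodal signalling, was at 20.9 and 17.2 in LDB2-/- and 4.23 and 6.96 in wild type, and rose by 1.77 (SE 0.29, adjusted p = 0.00412).

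Sostdc1 (gene ID 66042, chromosome 12, 36314169 to 36318452), a secreted antagonist of BMP and Wnt ligands, was at 49.9 and 36.9 scaled CPM in LDB2-/- and 134 and 130 in wild type. It fell by 1.61 log2 units (SE 0.17, adjusted p = 0.000824), and it ranked 6th of the 41 genes by mean FPKM in LDB2-/- and first in wild type. Fst (chromosome 13, 114452262 to 114458989), follistatin, which binds activins and some BMPs, was at 18.0 and 15.0 in LDB2-/- and 83.1 and 70.7 in wild type, and fell by 2.22 (SE 0.15, adjusted p = 0.000252). Fstl3, a relative of follistatin, was at 20.3 and 18.9 in LDB2-/- and 22.8 and 20.9 in wild type and was not called (-0.15, SE 0.15, adjusted p = 0.414). The other 2 secreted antagonists were rare. Nog had 0 and 8 counts in LDB2-/- and 117 and 72 in wild type. Grem1 had 36 and 0 counts in LDB2-/- and 147 and 220 in wild type, with a log2 change of -2.93 (SE 1.21, adjusted p = 0.084). Leaving out LDB2-/- replicate 2 gave -1.89 (adjusted p = 0.0156), and leaving out replicate 1, after which the remaining LDB2-/- library was at 0, gave an adjusted p of 0.000195. Of the summed FPKM of the 7 antagonists, Bambi made up 44.5% and 51.7% in LDB2-/- and 0.486% and 0.571% in wild type. Sostdc1 made up 28.9% and 23.3% in LDB2-/- and 61.9% and 62.9% in wild type. The ubiquitin ligases Smurf1 and Smurf2, which mark receptors and Smads for degradation, were not called (-0.22, SE 0.15, adjusted p = 0.24, and -0.25, SE 0.14, adjusted p = 0.189), though both were called lower with the library total alone (-0.54 and -0.57).

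**Figure D3:**
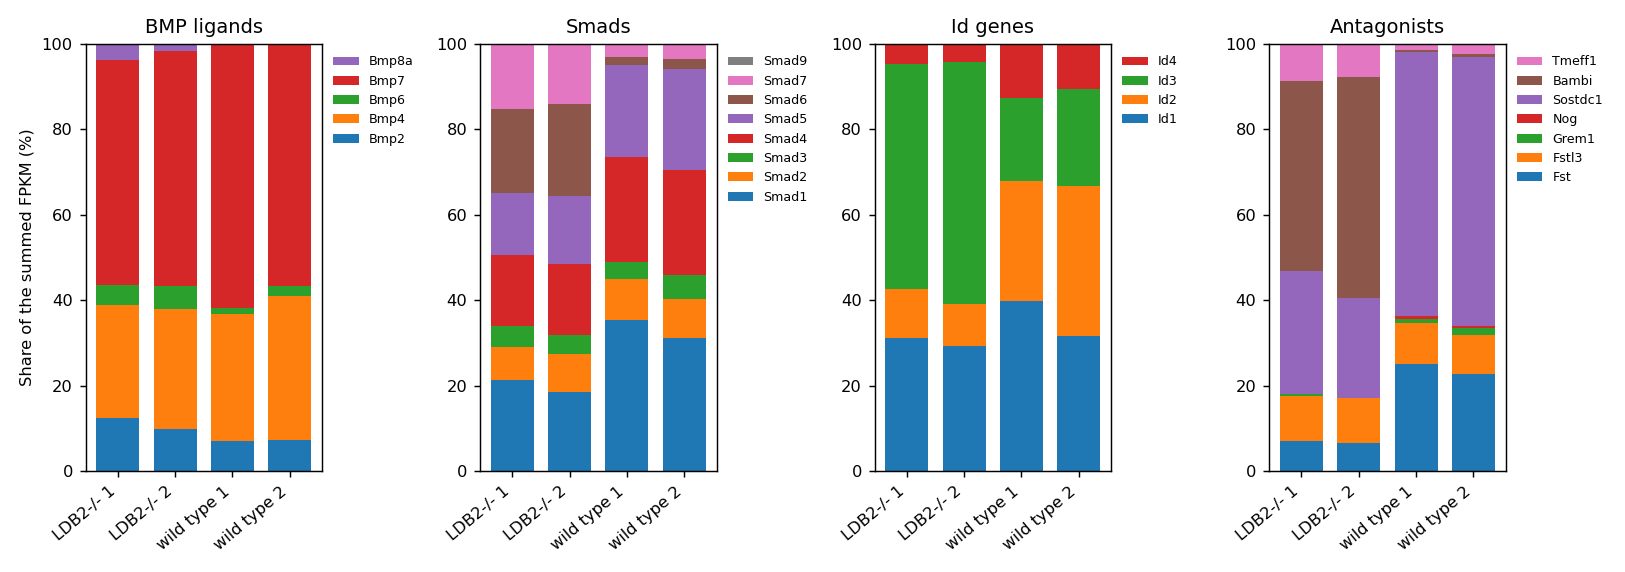
Share of the summed FPKM, in percent, taken by each gene within the BMP ligands, the Smads, the Id genes and the antagonists in every library, with LDB2-/- libraries left of wild type. Smad6 and Smad7, Id3 and Bambi fill a larger part of each LDB2-/- bar, and Sostdc1, Fst and Id2 a larger part of each wild type bar.

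Further genes of the pathway were examined as a list of 87, of which 79 had a row and 55 were tested. In LDB2-/- 16 were called higher and 23 lower, 70.9% of those tested against 57.2% of all genes, with a median log2 fold change of -0.22. Of these calls 9 were of genes that entered the test through a single genotype, 3 through LDB2-/- (Eng, Bmper and Msx1) and 6 through wild type (among them Bmp3, Itgb8 and Ldlrad4), so that their direction was partly fixed by the filter. Of 9 tested targets 3 were called higher and 4 lower, 77.8% against 57.2% of all tested genes. The homeobox genes Msx2, Msx1 and Dlx3, known as BMP targets in the hair matrix, rose. Ctgf and Tgfbi, which TGF-beta induces in many cells, and the repressor Snai2 were among those that fell. The targets Cdkn2b (0.27, adjusted p = 0.368 in edgeR) and Junb (0.15, adjusted p = 0.36) were not called. Dlx3, Ctgf, Tgfbi, Snai2, Cdkn2b and Junb were named after their values were seen, and Msx2 is also one of the hair matrix markers.

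Msx2 was at 352 and 396 scaled CPM in LDB2-/- and 5.43 and 5.88 in wild type, a rise of 6.05 log2 units (SE 0.15, adjusted p = 6.49e-05). Msx1 was at 40.6 and 45.7 in LDB2-/- and 0.715 and 1.56 in wild type, a rise of 5.25 (SE 0.39, adjusted p = 0.000291), and of 5.91 without wild type replicate 2. Dlx3 rose by 5.19 (SE 0.21, adjusted p = 8.65e-05). Hair matrix markers, summed above, were higher in the same libraries, and their part in these values was not tested. Ctgf was at 5.32 and 4.12 in LDB2-/- and 88.5 and 54.0 in wild type, a fall of 3.92 (SE 0.29, adjusted p = 0.000304). Tgfbi was at 69.7 and 74.8 in LDB2-/- and 540 and 440 in wild type, a fall of 2.76 (SE 0.15, adjusted p = 0.000149). Snai2 fell by 1.01 (SE 0.19, adjusted p = 0.00592).

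Among ligands and their proteases, Bmp3, a BMP that opposes other BMPs, fell by 3.05 (SE 0.22, adjusted p = 0.000277), and Bmp1, a protease that matures collagens and cleaves the antagonist chordin, rose by 1.28 (SE 0.12, adjusted p = 0.000654). All 11 tested genes of latent TGF-beta storage and activation were called, 5 higher and 6 lower, where 57.2% of all tested genes were called. Itgb8, an integrin chain that activates latent TGF-beta, had 26 and 0 counts in LDB2-/- and 277 and 712 in wild type. Its fall of 4.87 (SE 1.21, adjusted p = 0.017) became 3.81 without LDB2-/- replicate 2 and 3.87 without wild type replicate 2, without LDB2-/- replicate 1 the fit rested on a library at 0, and DESeq2 did not call it (adjusted p = 0.101). Dcn, a proteoglycan that binds TGF-beta and one of the fibroblast markers, rose by 3.47 (SE 0.14, adjusted p = 8.65e-05). Among co-receptors Eng, the endothelial TGF-beta co-receptor, rose by 4.12 (SE 0.22, adjusted p = 0.000139). Summed endothelial markers were also higher in LDB2-/-, though Kdr was not, and their part in the Eng value was not tested. Rgmb, a BMP co-receptor, fell by 2.39 (SE 0.14, adjusted p = 0.000168). Of 7 tested extracellular antagonists 2 were called higher and 3 lower, 71.4% against 57.2% of all tested genes. The secreted BMP-binding proteins Bmper and Fstl1 rose by 5.02 (5.68 without wild type replicate 1) and 2.06, with adjusted p of 0.000547 and 0.000272 in edgeR. Twsg1 (-1.50), Crim1 (-1.45) and Nbl1 (-0.91), named after their values were seen, fell. On the log2(FPKM + 1) scale limma gave smaller changes for Bmp3 (-1.62), Itgb8 (-1.65), Eng (2.26) and Bmper (1.32). Of 19 tested intracellular regulators 4 rose and 8 fell, so that 63.2% were called, close to the share over all tested genes. Pmepa1, a feedback inhibitor that TGF-beta induces in other cells, rose by 2.53 (SE 0.15, adjusted p = 0.000164), and Ldlrad4, a relative of it that binds Smad2 and Smad3, fell by 1.87 (SE 0.33, adjusted p = 0.00495).

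**Figure D4:**
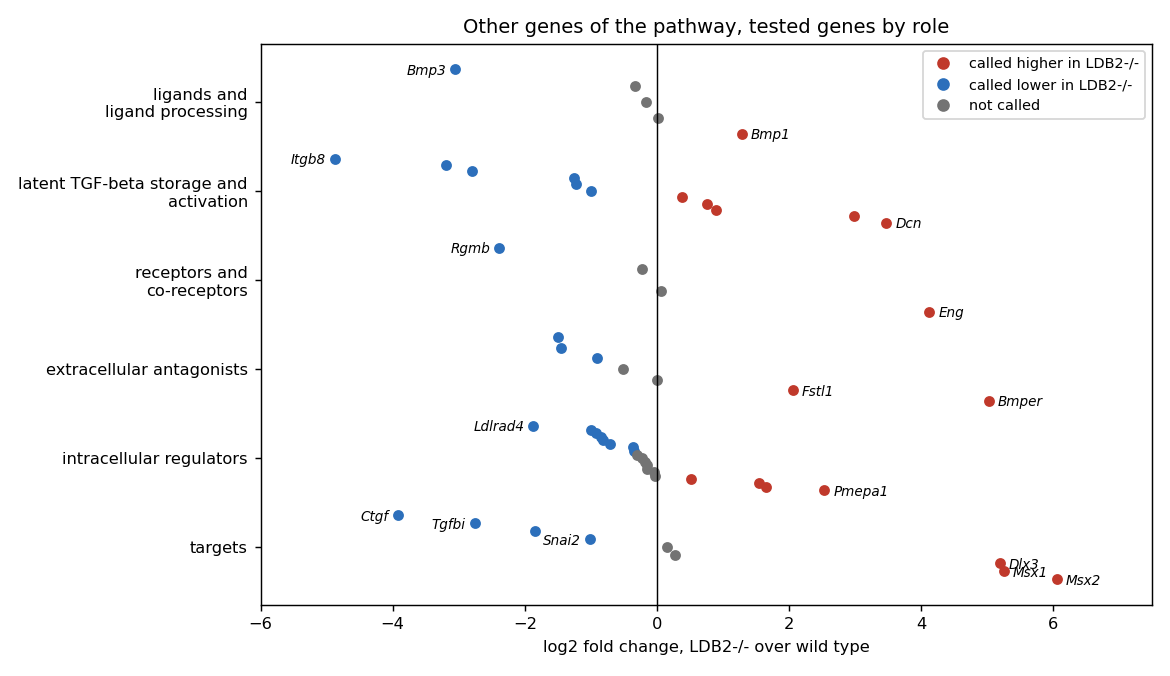
Log2 fold change of LDB2-/- over wild type for the 55 tested further genes of the pathway, in rows by role, with dots spread vertically only to separate them; red and blue are genes called higher and lower and grey are genes not called. Msx2, Msx1 and Dlx3 lie at 5.19 or more, and Ctgf, Tgfbi and Snai2 lie below 0.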

How the data were processed

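RNA-seq of 4 libraries, 2 of each genotype, was analysed. Per the submitters' processing notes, bcl2fastq 1.8.4, HISAT2 2.1.0, StringTie 1.3.4d and the build mm10 were used; their settings and any use of strand are not given in the sources used here. The authors deposited a table of whole, unnormalized read counts for each gene. Beside them stand the FPKM values that the authors deposited, scaled by gene length and library size. Fold changes (signed, held as a score) and p-values adjusted by Benjamini-Hochberg come from a comparison the authors deposited in that table, per its file headers.

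Counts were tested with edgeR 4.0.16 (R 4.3.3), two-sided, with TMM scaling and a filter of 1 FPKM in at least 2 libraries. FPKM served for comparisons between genes within a library. The standard error is the one implied by the F statistic. The members, lists and tests were chosen with earlier results of these data known. Every listed member is accounted for. Of the other pathway genes, the 2 called genes of each role with the largest absolute log2 fold change were named, and 1 further result is not reported here. Alternatives used DESeq2 1.42.0, limma 3.58.1, other scalings and filters, a replicate block and each library left out, where a lone library is assumed to vary like the other genotype. The functions were tested on simulated data. Libraries of a genotype differed by more than counting noise, so none was treated as a library deposited in duplicate; this does not show that they came from separate animals. The floor of 3 counts covers counting error only. Gene positions are RefSeq's (GRCm38.p6), matched by gene ID. Without strand, reads cannot be divided between Bmp6 and Txndc5, Bmp8a and Oxct2a, Acvr1 and Upp2, Acvr2a and Orc4, Acvr1b and Mir6962, Fstl3 and Prss57, or Id4 and A330033J07Rik, which overlap.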

Additional observations from a re-analysis of the deposited data

How the results depend on the processing

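Calls were recomputed under 14 alternatives. Of the 37 tested pathway genes, 19 kept their direction and their side of the threshold in every alternative that gave a value, and 18 changed in at least 1. The count called higher ran from 10 to 13. The count called lower was 9, and it was 17 with the library total alone, with limma on log2(FPKM + 1) and with limma on log2(FPKM + 0.1), settings in which 41.1% of all genes were lower with the library total and 43.1% with the first limma fit. With a mean FPKM of 5 or more, where fewer genes are tested, 14 of the further pathway genes were lower. With each library left out, pathway genes called ran from 12 to 13 higher and from 8 to 11 lower. Directions that turned were all of genes not called. Inhbb became -0.23 with the library total alone and -0.20 and -0.22 with limma at pseudocounts of 1 and 0.1, and Smad2 became -0.16, -0.13 and -0.14 there. Id4 became 0.02 with the replicate block and with the crossed block. With each library left out, Inhbb ran from -0.06 to 0.25, Bmpr1a from -0.26 to 0.05 and Id4 from -0.30 to 0.34. The cause was not tested. Replicate numbers share no stated source, and deviations of libraries with the same number correlated at -0.21 across genes. The replicate block called 13 higher and 9 lower, and the crossed pairing, chosen after seeing the data, 13 higher and 8 lower. Genotypes of 2 libraries limit the test, and genes below the FPKM filter were left out of it.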
